A study of Syntrichia ruralis with 8 samples.

Results

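The clones described here are 73 cDNA clones with no annotation whose response to drying stood higher in total RNA than in polysomal RNA. They were picked from the 559 unannotated clones among the 768 clones of an array of the moss Tortula ruralis, also called Syntrichia ruralis. The measure was log2 of treated over hydrated signal, set so that the median clone of each array is at 0. A clone was taken where the mean ratio of both polysomal groups lay at least 0.8 below the mean ratio of both total groups. This held for 80 unannotated clones, of which 6 with all 4 group means at or above 0.4 and 1 with all 4 at or below -0.4 were left out. These values chose the clones, so the difference between fractions and all 4 group means are given as a description with no test.

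A messenger RNA can be present in a cell without being translated. Polysomes are messenger RNAs that carry several ribosomes at once, and RNA prepared from them is enriched for messages engaged in protein synthesis, while total RNA also holds messages that are stored or free of ribosomes. Desiccation-tolerant mosses lose almost all cell water, stop protein synthesis while they dry, and resume it when they are wetted, and messages kept outside polysomes in the dry state are known in this moss. Polysome association is not translation itself, which was not measured. The function of the 73 clones is not known here, so they are described by their values alone.

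Each of 8 arrays carried treated and hydrated poly(A) RNA of leafy gametophytes, the haploid plants, labelled with a different dye each. The treated plants were slow-dried for 24 h at 66% relative humidity and 20 °C (polysomal RNA, 2 arrays), rapid-dried over silica gel and rehydrated for 2 h (polysomal RNA, 2 arrays), slow-dried in the same way (total RNA, 2 arrays), or rapid-dried and rehydrated in the same way (total RNA, 2 arrays). All plants were field-collected, stored dry and hydrated for 48 h before use, and the hydrated plants of each array had no further treatment. RNA was pooled from at least 3 clumps of moss, the arrays of a group came from separate RNA preparations with the dyes exchanged, and the 2 fractions were prepared from different samples. Fraction, slides and RNA preparation therefore cannot be told apart, and fewer cells of a type and less RNA per cell cannot be told apart either. Values per array are given below with array 1 before array 2 of a group, and the numbers pair no arrays across groups.

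The arrays of a group correlated over all clones with Pearson's r of 0.92 in slow-dried polysomal, 0.93 in rehydrated polysomal, 0.87 in slow-dried total and 0.78 in rehydrated total RNA. The title of 1 rehydrated polysomal array, array 2, calls it slow-dried, against its source name and protocol, and its r with the slow-dried polysomal arrays was 0.73 and 0.74. Clones for a chlorophyll a/b-binding protein, photosystem I subunit III and carbonic anhydrase, markers of green tissue, lay well above background in both channels on 8 of 8 arrays. A clone was well above background where its signal was over the mean local background plus 2 background SD in at least 2 of its 3 spots. By this measure 91.8 to 100% of the 73 clones were detected in the treated channel. In the hydrated channel the share was 91.8 to 97.3% on the polysomal arrays, against 89.0, 61.6, 26.0 and 80.8% on the total arrays.

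The polysomal minus total difference of the 73 clones had a median of -1.20 and ran from -2.83 to -0.81, against a median of -0.039 over all unannotated clones. It lay at or below -2 in 6 clones, between -2 and -1.5 in 13, and between -1 and the threshold in 21. The median group mean of the 73 clones was -0.30 in slow-dried polysomal and -0.26 in rehydrated polysomal RNA, against 1.10 in slow-dried total and 0.91 in rehydrated total RNA. Over all 768 clones these medians lay between -0.060 and 0.0012. The 73 clones thus stood well above the median clone in total RNA and slightly below it in polysomal RNA. Group means above 0 were found in 32 and 19 clones in slow-dried and rehydrated polysomal RNA, against 64 and 67 clones in slow-dried and rehydrated total RNA.

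**Figure D1:**
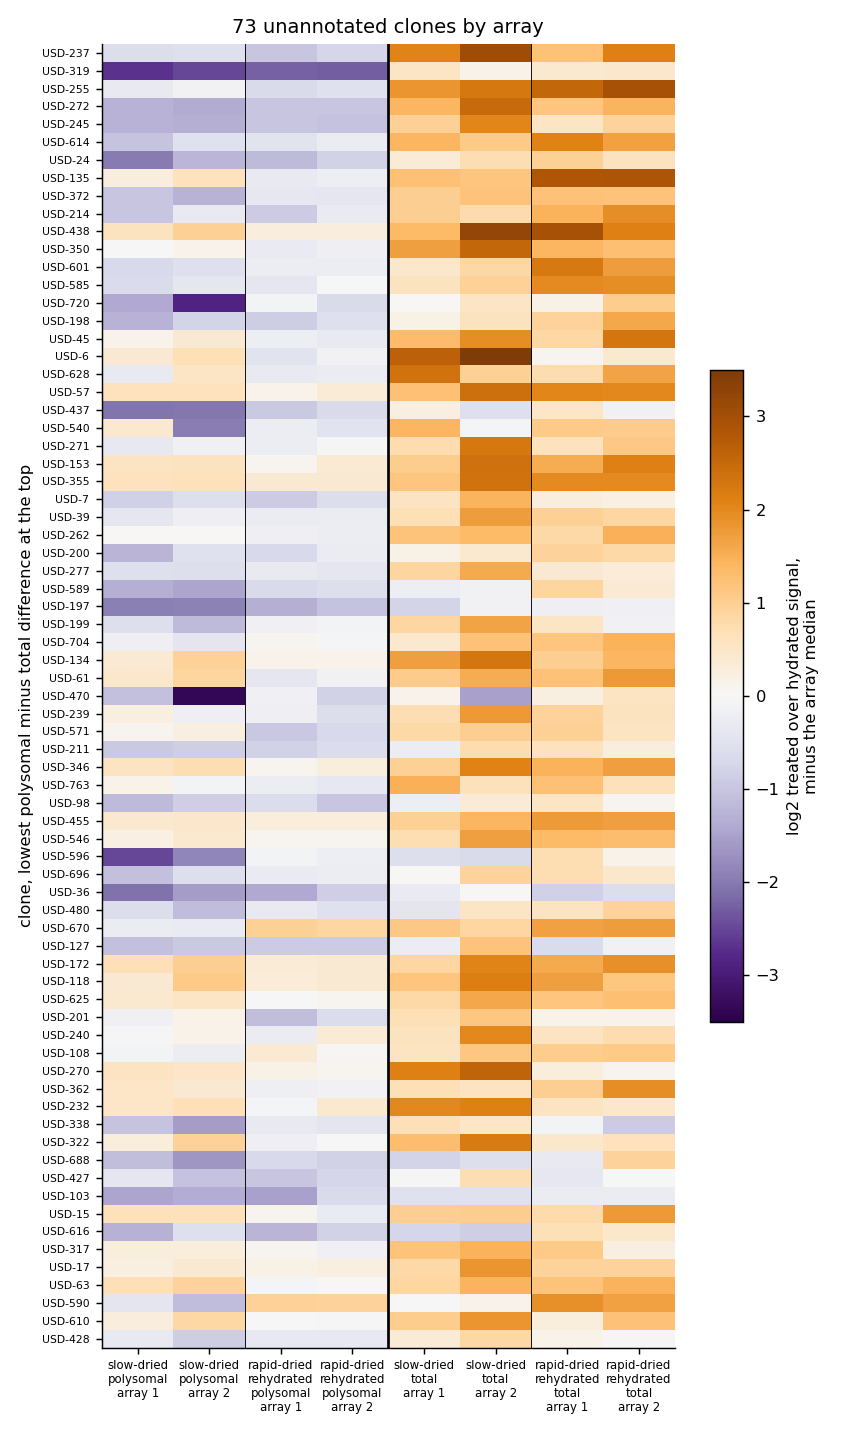
Heat map of the log2 treated over hydrated signal, minus the array median, of the 73 unannotated clones (rows, lowest polysomal minus total difference at the top) on the 8 arrays (columns, 4 polysomal left and 4 total right). Colour gives the log2 ratio; 54 of 73 clones were higher on every total array than on every polysomal array.

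The 6 clones with the lowest difference were headed by USD-237. USD-237 had log2 ratios of -0.58 and -0.54 (slow-dried) and -1.0 and -0.75 (rehydrated) in polysomal RNA, against 2.05 and 3.06 (slow-dried) and 1.21 and 2.11 (rehydrated) in total RNA. All 4 polysomal arrays were below 0 and all 4 total arrays above it, with a difference of -2.83 on the scale of the choice. USD-319 had -2.68, -2.51, -2.25 and -2.30 on the polysomal arrays, against 0.53, 0.15, 0.43 and 0.45 on the total arrays. Its difference of -2.82 came mostly from a low polysomal ratio, the lowest of the 73, while its total ratio was near that of the median clone. USD-255 had -0.30, -0.12, -0.68 and -0.51 on the polysomal arrays, against 1.85, 2.26, 2.53 and 2.94 on the total arrays. Here the polysomal ratio lay near 0 and the total ratio was high, a difference of -2.80.

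The other three were lower in polysomal RNA and higher in total RNA than the median clone on every array. USD-272 had -1.27, -1.38, -0.98 and -0.99 on the polysomal arrays, against 1.41, 2.47, 1.15 and 1.43 on the total arrays. USD-245 had -1.27, -1.33, -1.01 and -1.05 on the polysomal arrays, against 0.98, 2.03, 0.54 and 0.92 on the total arrays. The lowest total array of either clone still stood above its highest polysomal array. USD-614 had -1.02, -0.50, -0.48 and -0.25 on the polysomal arrays, against 1.40, 1.09, 2.08 and 1.68 on the total arrays. The differences were -2.77 for USD-272, -2.29 for USD-245 and -2.13 for USD-614, and in none of the 6 did the fractions overlap. The hydrated channel was not well above background on either array of rehydrated total RNA in USD-237, USD-255 and USD-272, nor on either array of slow-dried total RNA in USD-614. Their total ratios there are no measured folds, and the order of the 6 is that of the values used for the choice.

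**Figure D2:**
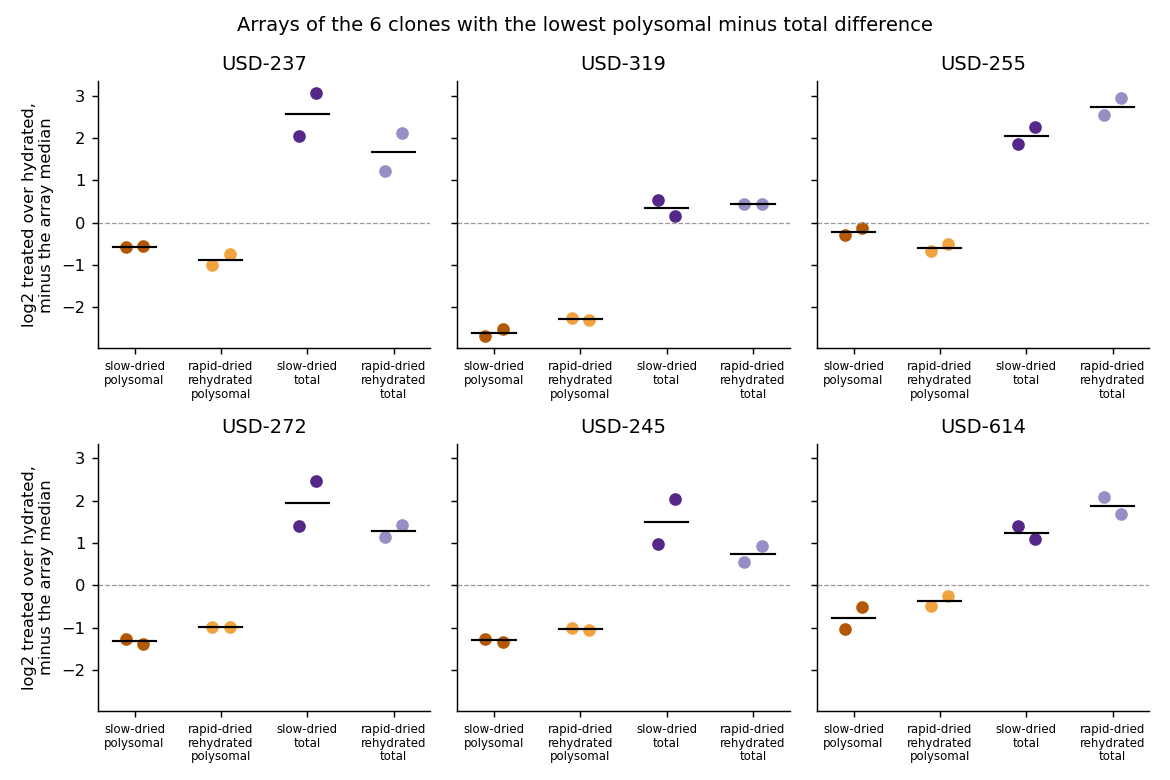
Log2 treated over hydrated signal, minus the array median, on each array (points) with the group mean (black line) for the 6 clones with the lowest polysomal minus total difference, groups along the x axis. In each clone the 4 polysomal arrays lie below 0 and the 4 total arrays above it.

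On the scale of the choice USD-438, USD-255 and USD-237 had the highest mean total ratios, and of these USD-438 was detected in both channels in every comparison on at least 1 array. It had 0.59, 0.97, 0.27 and 0.25 on the polysomal arrays, against 1.36, 3.21, 2.95 and 2.12 on the total arrays. It was thus above the median clone in both fractions, and its slow-dried total arrays lay further apart than those of any other of the 73, by 1.85. At the other end, USD-197 and USD-36 had the lowest mean polysomal ratios after USD-319. USD-197 had -1.92, -1.90, -1.33 and -1.05 on the polysomal arrays, against -0.79, -0.13, -0.19 and -0.16 on the total arrays. USD-36 had -2.10, -1.57, -1.40 and -0.87 on the polysomal arrays, against -0.29, 0.01, -0.82 and -0.60 on the total arrays. In USD-197 all 8 arrays were below 0, and in USD-36 all but 1. Both were thus lower in polysomal RNA without being high in total RNA.

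Just inside the threshold lay USD-428 and USD-610, both at -0.81, and USD-590 at -0.85. The nearest unannotated clones outside it were USD-467 at -0.80, USD-660 at -0.79 and USD-765 at -0.78. The values at the edge run on without a gap.

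The 73 clones fell into several patterns. Every total array was above every polysomal array in 54 of 73 clones, against 13.0% of all 768 clones, a count that the choice of the clones largely sets. In 20 clones all 4 polysomal arrays were below 0 and all 4 total arrays above it, against 4.04% of all clones, and this count too is largely set by the choice. These were the 6 clones above and USD-24, USD-372, USD-214, USD-601, USD-585, USD-720, USD-198, USD-271, USD-7, USD-39, USD-200, USD-277, USD-696 and USD-428. Their mean ratio was -2.43 to -0.20 in polysomal RNA, against 0.34 to 2.40 in total RNA.

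Another 12 clones (16.4%) were above 0 on all 8 arrays, against 17.7% of all clones, a count that the choice also acts on. They were USD-438, USD-57, USD-153, USD-355, USD-134, USD-346, USD-455, USD-546, USD-172, USD-118, USD-270 and USD-17, with means of 0.20 to 0.60 in polysomal RNA, against 1.12 to 2.41 in total RNA. USD-197 and USD-103 were below 0 on all 8 arrays, against 17.6% of all clones. In 23 clones all total arrays were above 0 while the polysomal arrays lay on both sides of it, with polysomal means of -0.43 to 0.38 against total means of 0.53 to 2.03. In 14 clones, USD-36 among them, all polysomal arrays were below 0 while the total arrays lay on both sides, with polysomal means of -1.48 to -0.49 against total means of -0.43 to 0.73. USD-540 and USD-590 lay on both sides of 0 in both fractions.

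Arrays of the same group differed by a median of 0.25 over the 73 clones in slow-dried polysomal, 0.15 in rehydrated polysomal, 0.61 in slow-dried total and 0.34 in rehydrated total RNA. Over all clones these medians were 0.22, 0.15, 0.47 and 0.36. The total arrays of a group thus lay further apart than the polysomal ones, for the 73 clones as for all clones. The widest pair was that of USD-540 in slow-dried polysomal RNA, 2.36 apart, and neither channel of USD-540 was well above background on the arrays of either polysomal group.

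A lower ratio in polysomal RNA can come from less signal in the treated channel, from more signal in the hydrated channel, or from both. Levels were taken as log2 background-subtracted signal minus the median of all clones in that channel. The median level of the 73 clones in the treated channel was 0.10, 0.023, 0.12 and -0.075 on the polysomal arrays, against 0.80, 0.67, 0.28 and 0.40 on the total arrays. In the hydrated channel it was 0.38, 0.29, 0.32 and 0.24 on the polysomal arrays, against -0.26, -0.42, -0.31 and -0.25 on the total arrays. In hydrated plants the median of the 73 was thus above that of all clones in polysomal RNA and below it in total RNA. In treated plants it was near that of all clones in polysomal RNA and above it in total RNA. Single clones lay on both sides. Above the hydrated channel median were 40 to 44 of the 73 on the polysomal arrays, against 28 to 34 on the total arrays. For the treated channel these counts were 36 to 38 against 46 to 50.

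**Figure D3:**
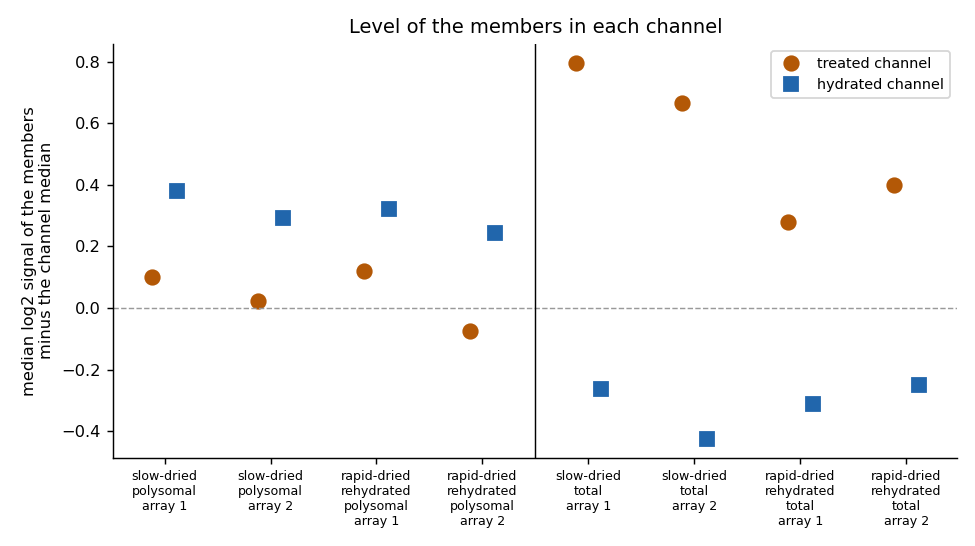
Median log2 signal of the 73 clones minus the median of all clones in the same channel (y axis) on the 8 arrays (x axis), with treated channels as circles and hydrated channels as squares. The hydrated squares lie between 0.24 and 0.38 on the polysomal arrays, against -0.42 and -0.25 on the total arrays.

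Both channels contributed over the set, but not in every clone. The polysomal minus total difference in level had a median of -0.58 in the treated channel, with 53 of 73 clones lower in polysomal RNA. Over all clones the median was -0.065, with 401 of 768 lower and quartiles of -0.96 and 0.71. In the hydrated channel the median difference was 0.60, with 51 of 73 clones higher in polysomal RNA. Over all clones it was -0.16, with 347 of 768 higher and quartiles of -1.20 and 0.68. A lower treated and a higher hydrated level were found together in 31 of the 73 clones. Only the hydrated channel was higher in 20, and only the treated channel was lower in 22. This split was not counted over all clones. The hydrated channel held the larger part in 39 clones. These levels make up the ratios that chose the clones and are given with no test.

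USD-24 and USD-372, both with the crossing pattern, differed in this respect. USD-24 had a mean treated level of 0.57 in polysomal RNA against -0.49 in total RNA, and a mean hydrated level of 1.92 in polysomal RNA against -0.94 in total RNA. Its treated level was thus higher in polysomal RNA, and its hydrated level more so. USD-372 had a mean treated level of -2.40 in polysomal RNA against 1.64 in total RNA, and a mean hydrated level of -1.65 in polysomal RNA against 0.64 in total RNA. It was thus lower in polysomal RNA in both channels, the treated one more so. USD-103 had the lowest treated difference, with -2.17 in polysomal RNA against 2.34 in total RNA, and its hydrated level was likewise low in polysomal RNA, at -0.83 against 2.89 in total RNA. All 3 were detected in both channels in every comparison on at least 1 array.

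The hydrated channel of the total arrays detected fewer clones than that of the polysomal arrays, among the 73 as among all clones. Over all clones 83.2 and 66.3% were detected in it in slow-dried total RNA and 36.3 and 83.5% in rehydrated total RNA, where array 1 detected 19 of the 73 clones. In 21 clones some channel was not well above background on either array of a comparison, and in 52 this was nowhere so. A ratio with a hydrated channel below this limit has only a lower bound, which sets the treated level against the lowest detected level of the channel, or against the clone's own signal where that is higher. Bounds are on the loess scale, so higher or lower here is relative to the median clone of the array. In rehydrated total RNA a hydrated channel below the limit was found in 13 clones. Of these, 11 had a bound above 1, from at least 1.13-fold to at least 5.21-fold above hydrated plants relative to the median clone. USD-255 was at least 5.21-fold, USD-135 at least 4.35-fold, USD-237 at least 2.86-fold, USD-362 at least 1.87-fold and USD-272 at least 1.72-fold higher there.

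In slow-dried total RNA the same applied to 8 clones, 6 of them with a bound above 1. The highest was that of USD-628, at least 3.31-fold above hydrated plants relative to the median clone, and USD-614 had at least 2.89-fold. In 4 of these 6 clones, USD-628 and USD-614 among them, the clone's own signal set the bound on both arrays, so the bound equals the fitted ratio. In polysomal RNA the treated channel was the weak one, in 3 clones after slow drying and in 1 after rehydration. After slow drying these clones were at least 1.23- to 1.57-fold below hydrated plants relative to the median clone. The 1.57-fold of USD-338 is likewise at its own signal. USD-540, USD-427 and USD-6 had both channels below the limit in a comparison and are given no fold there. The treated channel in rehydrated total RNA was weak in 1 clone, with no bound. The weak channels thus lay mostly on the hydrated side in total RNA, and in polysomal RNA either the treated channel or both were weak. The choice favours this pattern, since it took clones with a low polysomal and a high total ratio. The 18 clones well above background in both channels on all 8 arrays had differences of -2.29 to -0.86, with a median of -1.22. Without rehydrated total array 1, 37 clones were detected throughout on the other 7 arrays, with a median of -1.15.

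The choice of the clones used the mean over both treatments, so the treatments could differ. The difference had a median of -1.25 in slow-dried plants and of -1.20 in rehydrated plants. It reached -0.8 in 62 clones in slow-dried plants, in 56 in rehydrated plants and in 45 in both, against 18.2, 14.3 and 8.72% of all clones, counts that the choice largely sets. Of the rest, 17 reached it in slow-dried plants alone and 11 in rehydrated plants alone. USD-270, for example, had -1.81 in slow-dried against -0.042 in rehydrated plants. USD-616 had -0.11 in slow-dried against -1.63 in rehydrated plants. Both were detected in both channels in every comparison on at least 1 array.

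**Figure D4:**
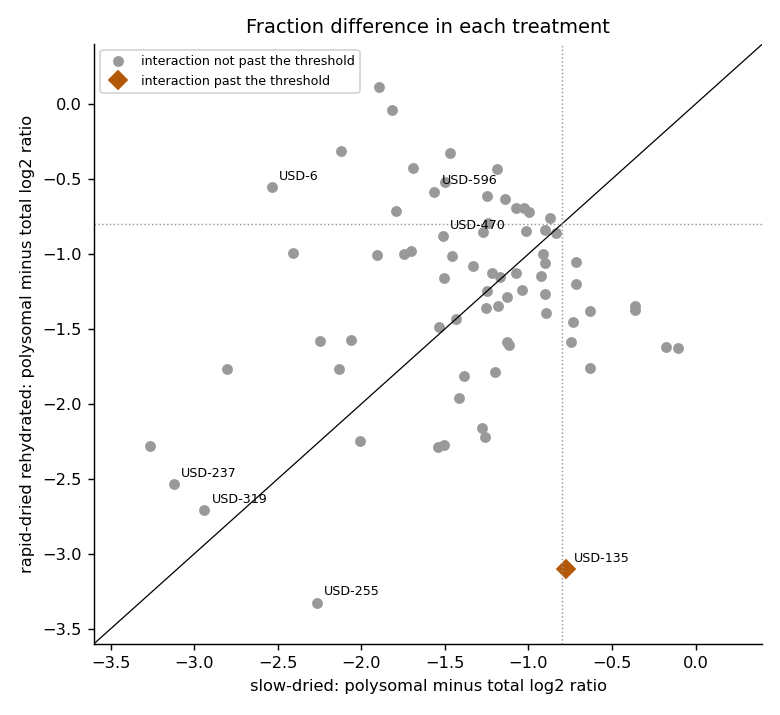
Polysomal minus total log2 ratio of the 73 clones in slow-dried plants (x axis) and in rapid-dried rehydrated plants (y axis), each point a clone, with the line of equality and dotted lines at -0.8. USD-135, the diamond, is the 1 clone that passed the limma interaction test, which used loess ratios and not the plotted values. It kept the call in 3 of 16 alternative settings.

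Whether the difference between fractions itself differed between treatments was tested as an interaction in limma, on ratios normalized by loess, which removes the trend of the ratio with signal on each array. Among the 73, USD-135 alone passed at an adjusted p under 0.05, on the side where slow-dried plants had the smaller difference. On the scale of the choice it reached -0.8 in rehydrated plants alone, at -3.10 against -0.77 in slow-dried plants. The choice thus acts on this call. The count was 1 of 73 clones, against 0.130% of all 768 clones in the same direction, and none passed in the other direction, against 0.130%. At an unadjusted p under 0.05 there were 15 of the 73 and 147 of all 768 clones. Its loess ratios were 0.33 and 0.37 in slow-dried polysomal, -0.27 and -0.24 in rehydrated polysomal, 1.23 and 1.39 in slow-dried total and 2.94 and 2.84 in rehydrated total RNA. The polysomal minus total difference was thus -0.96 in slow-dried and -3.15 in rehydrated plants, and these differed by 2.18 ± 0.27 (SE, n = 2 arrays a group, limma adjusted p = 0.0491). Its hydrated channel was not well above background in rehydrated total RNA, where the ratio is at least 4.35-fold against a fitted 7.42-fold, so -3.15 and 2.18 are fitted values and no bounds. The call was lost in limma when any 1 of the 8 arrays was left out, with 2.10 to 2.27 in size and an adjusted p of 0.0635 to 0.425 in those fits. The same clone kept the call in 3 of 16 alternative settings, with adjusted p from 0.0158 to 0.684 over all of them.

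The contrast of slow-dried with rehydrated plants within a fraction was not used to choose the clones. In total RNA 3 clones were higher in slow-dried plants, against 6.38% of all 768 clones, and 10 were lower, against 11.3%. These are 4.11% and 13.7% of the 73, shares near those of all clones. Before adjustment 30 of the 73 and 287 of all clones had p under 0.05. The median of the 73 was -0.14, against -0.027 over all clones, and the range of fitted values was -1.82 to 2.16. The ends of this range are USD-362 and USD-6, whose hydrated channel was not well above background in rehydrated total RNA. The count of 10 was 3 without any 1 polysomal array, 4 without slow-dried total array 1, 5 without slow-dried total array 2 and 6 without rehydrated total array 1, and the count of 3 was 8 without slow-dried total array 1.

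USD-6, USD-270 and USD-232 were the clones that stood higher in slow-dried plants. USD-6 had loess ratios of 2.72 and 3.30 in slow-dried total RNA, against 0.19 and 1.52 in rehydrated total RNA, and was called by limma (adjusted p = 0.00846). Neither channel was well above background on either rehydrated array, so the rehydrated values are not measured ratios and no size is given for USD-6. USD-270 had 1.90 and 2.39 in slow-dried total RNA, against 0.29 and 0.067 in rehydrated total RNA, or 3.91-fold higher (limma adjusted p = 0.00737). USD-232 had 2.02 and 2.06 in slow-dried total RNA, against 0.53 and 0.50 in rehydrated total RNA, or 2.88-fold higher (limma adjusted p = 0.00799). In USD-270 and USD-232 the arrays of the treatments did not overlap. In polysomal RNA none of the 3 passed the test, with USD-270 at 0.58 and 0.57 in slow-dried against 0.29 and 0.075 in rehydrated plants.

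The 5 largest differences in the other direction were those of USD-362, USD-590, USD-135, USD-198 and USD-214. USD-362 had 0.65 and 0.76 in slow-dried total RNA, against 1.72 and 3.33 in rehydrated total RNA, a difference of -1.82 ± 0.43 (SE, n = 2 arrays a group, limma adjusted p = 0.0343). The rehydrated arrays lay far apart, and the difference was -1.01 without rehydrated array 2 and -2.62 without rehydrated array 1. Its call was lost in 9 of 16 alternatives. USD-590 had 0.29 and 0.31 in slow-dried total RNA, against 2.14 and 1.72 in rehydrated total RNA (-1.63 ± 0.21, limma adjusted p = 0.00737). USD-135 was lower in slow-dried total RNA by the values given above (-1.58 ± 0.19, limma adjusted p = 0.00655). The bounds of USD-135 and USD-362 in rehydrated plants, at least 4.35- and at least 1.87-fold, exceed their slow-dried ratios of 2.48- and 1.63-fold.

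USD-198 had 0.063 and 0.086 in slow-dried total RNA, against 1.26 and 1.79 in rehydrated total RNA (-1.45 ± 0.21, limma adjusted p = 0.00846). It was at the median clone after slow drying and above it after rehydration. USD-214 had 1.07 and 0.32 in slow-dried total RNA, against 1.78 and 2.40 in rehydrated total RNA (-1.40 ± 0.37, limma adjusted p = 0.0454). Its difference was -0.75 without slow-dried array 2 and -2.05 without slow-dried array 1, and its call was lost in 12 of 17 alternatives. The other clones lower in slow-dried total RNA were USD-601, USD-585, USD-255, USD-455 and USD-63, with differences of -1.28 to -0.73.

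In polysomal RNA 2 clones were lower in slow-dried than in rehydrated plants, against 3.65% of all 768 clones, and none was higher, against 0.260%. At an unadjusted p under 0.05 there were 17 of the 73 and 182 of all clones in limma. USD-590 had -0.38 and -0.69 in slow-dried polysomal RNA, against 0.85 and 0.77 in rehydrated polysomal RNA, a difference of -1.35 ± 0.21 (SE, n = 2 arrays a group, limma adjusted p = 0.0281). USD-670 had -0.086 and -0.28 in slow-dried polysomal RNA, against 0.94 and 0.79 in rehydrated polysomal RNA, a difference of -1.05 ± 0.20 (limma adjusted p = 0.0423). In both clones the slow-dried arrays were below 0 and the rehydrated ones above it. Neither passed without any 1 of the 4 polysomal arrays, and 3 of the 73 passed without any 1 total array. USD-590 was thus lower in slow-dried plants in both fractions.

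**Figure D5:**
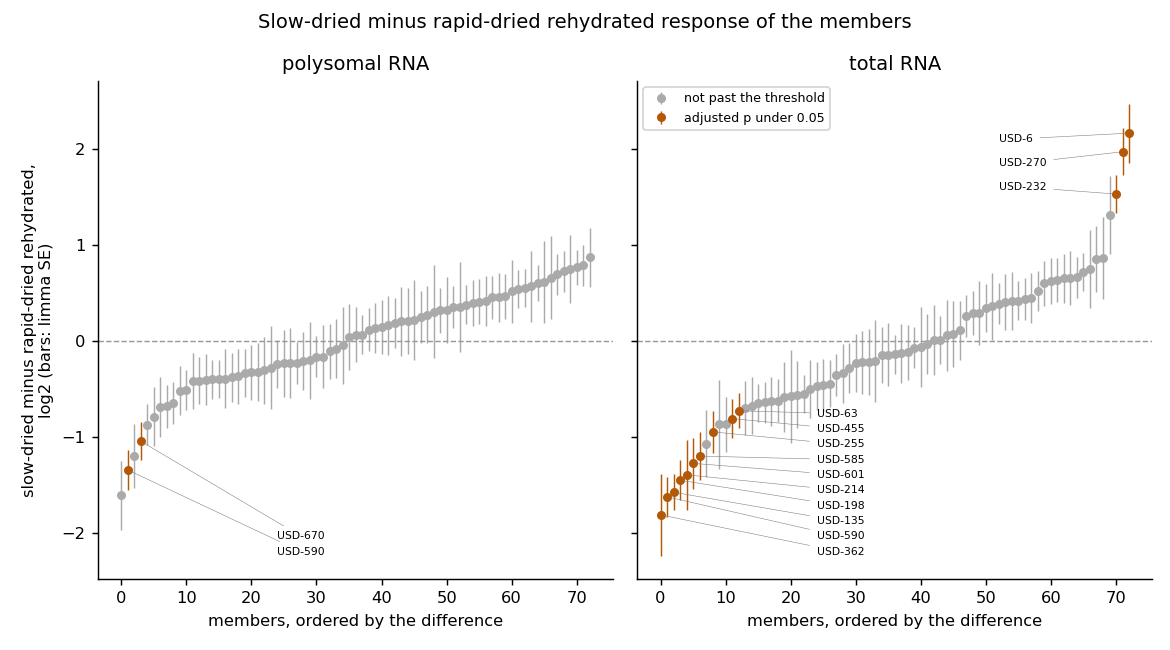
Slow-dried minus rapid-dried rehydrated log2 ratio of the 73 clones, ordered by size, in polysomal RNA (left) and total RNA (right), with bars for the limma SE. Coloured clones passed at an adjusted p under 0.05, 2 in polysomal RNA and 13 in total RNA.

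Loess sets the median clone at 0, whereas in the authors' deposited table the 4 ribosomal protein control clones have a median ratio near 1. The median ratio over all clones there was 2.52 and 2.44 in slow-dried polysomal and 2.02 and 2.03 in rehydrated polysomal RNA. It was 3.11 and 3.15 in slow-dried total and 4.81 and 2.34 in rehydrated total RNA. A clone below 0 by loess can thus stand above hydrated plants on that scale. The design text names a control set of which 2 names are among the 4 control clones, so which genes the other 2 carry is uncertain. With each array shifted so that these control clones average 0, the slow-dried minus rehydrated difference of the median clone moved by 0.30 in total RNA and by 0.36 in polysomal RNA. On that scale 4 of the 73 clones were higher and 3 lower in slow-dried total RNA, and none was called in polysomal RNA in either direction. The 3 that stayed lower were USD-362, USD-590 and USD-135.

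Properties that the choice did not use are given as a description. A database sequence was listed for 82.2% of them, against 78.9% of all unannotated clones. The SD of the 3 spots of a clone had a median of 0.13 on the log2 scale in both sets, and median log2 signal was 11.4 against 11.3. A spot was saturated in 2 of the 73 and in 18 of the 559 clones. Clone numbers differed more, with 64.4% of the 73 numbered up to 384, against 47.1% of the numbered unannotated clones. Between numbers 193 and 288, 18 of 63 unannotated clones (28.6%) belonged to the set, against 4.17 to 16.7% in the other 7 stretches of equal length. What a clone number stands for is not given in the sources used here.

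Some of the 73 clones had nearly the same ratios on all arrays. The pairs were sought after the values were seen, and likeness is the mean absolute difference in log2 ratio over the 8 arrays. USD-57 and USD-355 differed by 0.071, USD-546 and USD-625 by 0.11, USD-57 and USD-153 by 0.12, and USD-601 and USD-585 by 0.16. The median over all 2628 pairs was 0.81. USD-319 stood most apart, at 0.70 from its nearest clone. Whether alike clones carry the same transcript was not tested, since no sequences were used here.

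Of the 209 annotated clones, 21 met the same thresholds, 2 of them annotated as an unknown protein and so not counted among the 73. The lowest was USD-421, the flavoprotein subunit of succinate dehydrogenase, an enzyme of the citric acid cycle and the respiratory chain, with a difference of -2.40. It had -1.29, -1.50, -0.42 and -0.53 on the polysomal arrays, against 0.97, 0.42, 2.31 and 2.17 on the total arrays. Tr-288, a rehydrin, of a group of transcripts named for rehydrated moss, followed with -2.22. It had -1.90, -1.53, -0.64 and -1.26 on the polysomal arrays, against 1.61, 0.53, 0.79 and 0.63 on the total arrays. Both showed the crossing pattern of the 20 clones above.

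Next came USD-548, a chloroplast Toc125 protein of the import machinery of the outer envelope, at -1.96, and USD-440, an unknown protein, at -1.94. USD-279, a hypothetical protease, had -1.80, USD-542, a protein phosphatase 2C of the family that acts in abscisic acid signalling, had -1.64, USD-454, a putative abscisic acid-responsive protein, had -1.62, and USD-158, the amino acid transporter aat1, had -1.49. By annotation, a difference at or below -0.8 was found in none of 22 ribosomal protein clones, whose median was 0.54, while 8 of them lay at or above 0.8. It was found in both clones for early light-inducible proteins (median -0.92), which protect chloroplasts under stress. It was also found in 3 of 11 clones for antioxidant and redox proteins (median -0.23), USD-364, a mitochondrial aldehyde dehydrogenase, among them. It was found in 2 of 13 clones for late embryogenesis abundant proteins and rehydrins (median -0.046), in 1 of 4 for photosynthesis and Toc (median -0.61) and in 2 of 7 for kinases or phosphatases (median -0.12). Over all 768 clones it was found in 102, 121 lay at or above 0.8, and the median was 0.0058.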

How the data were processed

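Per the file headers, the deposited scanner files give un-normalized spot and local background intensity per channel. A deposited spot flag score, whose meaning is not given in the sources used here, was used only to count spots. The authors' deposited table gives 1 ratio of treated over hydrated per clone and array, whose control clones have a median of 0.99 to 1.00, and served as an alternative. Image software is not given in the sources used here.

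The clones were chosen on floored signal (Signal Mean minus Background Median, floor 50), as log2 of the ratio, median of 3 spots, minus the array median. Tests used normexp (offset 50), loess (span 0.3, 4 iterations), the mean of 3 spots, and limma 3.58.1 in R 4.3.3 on all 8 arrays, with 4 group coefficients and a dye term (3 residual degrees of freedom, 6.41 in total). P-values are two-sided, adjusted by Benjamini-Hochberg over 768 clones and called under 0.05. They set a difference against the spread between these arrays of pooled RNA, taken over all 8 and moderated across clones, not the spread between plants. Array number limits the precision. Bounds used loess and Aquantile channel levels. In simulated data with normal noise, 200 of 768 clones were changed. Of these, 149 of 200 changes of 1 on the log2 scale between treatments in total RNA were called, with 4 unchanged clones. The interaction test called 0 of 200 of that size and 194 of 200 of size 2, with 7 unchanged clones. In the data the interaction called 1 of 768 clones in each direction. The simulated share of changed clones thus differs from the data, and the simulated rates need not carry over.

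Named clones were the 6 lowest differences, the 3 highest total and 3 lowest polysomal ratios, 3 on each side of the threshold, up to 5 called in each direction of each contrast, and 8 annotated clones. The clones, lists and this rule were chosen with earlier results of these data known; clones named for channels, patterns or unequal treatments were picked after their values were seen. Alternatives covered normalization, background, spots, dye, dim clones, spread and each array left out.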

Additional observations from a re-analysis of the deposited data

Results flagged for a closer look

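USD-135 drew attention because its polysomal minus total difference was not the same in both treatments. It reached the threshold of the choice in rehydrated plants alone, so the choice acts on this result. The difference was -0.96 in slow-dried and -3.15 in rapid-dried rehydrated plants, and the interaction was 2.18 on the log2 scale (limma adjusted p = 0.0491). Both arrays of each group lay on the same side of 0. The hydrated channel of USD-135 was not well above background in rehydrated total RNA, where its ratio was at least 4.35-fold, so -3.15 and 2.18 are fitted values and no bounds. Its part in the result was not tested. Groups of 2 arrays were too small to look for a single array that stands apart.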

How the results depend on the processing

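No paired analysis was possible because the labels carry no replicate numbers that pair arrays across groups. Each count below is of the 73 clones called by limma in slow-dried minus rehydrated plants, and the cause of a change was not tested. In total RNA the 3 higher became 7 with the array median in place of loess, 1 with only clones detected on every array, and 0 with the authors' ratio table or with no normalization within arrays. The 10 lower became 6 with the median of spots, 3 on the control clone scale, 3 with only clones detected on every array, and 0 with the authors' ratio table or no normalization. In polysomal RNA the 2 lower became 1 with eBayes trend and robust. With detected clones only, neither of the 2 was in the fit, and USD-197 was called. The count was 0 on the control clone scale, with the authors' ratio table or with no normalization. The 1 interaction became 2 without a dye term. It became 0 with the authors' ratio table, the control clone scale, eBayes trend and robust, floored subtraction or no normalization. With detected clones only it was also 0, but USD-135 was not in that fit. Only 18 of the 73 clones were tested where only detected ones were kept. In total RNA that setting kept 2 of the 13 calls, USD-198 and USD-214, and its 1 higher clone was USD-322. USD-6, USD-270, USD-232, USD-362, USD-590 and USD-135 were not in it.

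With each array left out in turn, the counts were 3 to 8 higher and 3 to 7 lower in total RNA, 0 to 3 lower in polysomal RNA and 0 to 1 for the interaction. A group left with 1 array was assumed to vary like the others. USD-135 lost its interaction call whichever array was left out, and where a clone was called it was USD-362. The array whose title calls it slow-dried was among those left out, with 3 higher and 3 lower in total RNA. USD-670 in polysomal RNA turned to 0.042 with no normalization within arrays, the 1 named value that changed sign. Of the named clones' values under all alternatives, 115 kept direction and call and 62 kept direction but not the call. The choice itself gave 52 to 103 clones under other thresholds, scales, floors and sources, and 66 to 92 with an array left out. The median difference of the 73 was -1.36 on the control clone scale, -1.26 with loess and -1.24 with the authors' centred ratios. With no centring it was -1.77 with the authors' ratios and -2.03 with no normalization, where all clones had -0.60 and -0.80. It ran from -1.32 to -1.06 with an array left out. With 2 arrays a group, no change of 0.5 on the log2 scale was called in simulated data.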

Other observations

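An opposite set of 71 unannotated clones had a difference of at least 0.8 under the same rule. Their polysomal minus total level had a median of 0.41 in the treated channel and of -1.02 in the hydrated channel, the reverse of the 73 clones in both. The choice of each set on the ratio of these channels largely sets this reversal. Neighbouring clone numbers were as frequent in one set as in the other, with 20 of the 73 and 20 of the 71 next to another clone of their set. These counts were not set against other draws from the unannotated clones. Between clone numbers 193 and 288, 8 of the 63 unannotated clones belonged to the opposite set, against the 18 of 63 in the set of 73.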
